A study of Mus musculus with 8 samples.

Results

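The NFAT (nuclear factor of activated T cells) pathway of dendritic cells (DCs) was examined at the genes that encode its own parts. These were 9 genes taken by name for their role, out of 37252 annotated genes (22350 of them protein-coding) on the mouse autosomes and chromosome X. They encode the NFAT factors (Nfatc1, Nfatc2, Nfatc3 and Nfat5), calcineurin (Ppp3ca, Ppp3cb and Ppp3r1), a calcineurin inhibitor (Rcan1) and the cytosolic receptor of the drug FK506 (Fkbp1a). All 9 symbols were found in the annotation, each with 1 gene. The data were the peaks called in 4 ChIP-seq experiments with D1 cells, a DC line from C57BL/6 spleen that is kept in long-term culture. NFATc2, which the labels call NFAT1, was recovered through a V5 tag 30 min after the addition of 10 μg/ml curdlan, which is a β-glucan and a ligand of dectin-1. H3K4me3, a histone mark found mainly at active gene starts, was mapped in non-treated cells (NT) and in cells given 10 μg/ml curdlan for 2 h, either alone or together with FK506. The labels do not give the FK506 dose of that library.

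The cells of the NFATc2 experiment carried a lentiviral copy of NFATc2 with the tag at its C terminus, together with a GFP reporter, and were sorted for low GFP. The sites are therefore those of an added, tagged NFATc2, and endogenous NFATc2 was not mapped. The sources used here do not say whether the cells of the H3K4me3 experiments carried the transgene. For each condition 1 ChIP library was sequenced beside 1 input library, with 14377535 ChIP tags for NFATc2 and between 16662316 and 21289349 for H3K4me3. There are no replicates, so the errors given are counting errors only, and conditions are compared without p-values. The p-values quoted are those that the peak caller gave to single peaks. The DC label was checked against H3K4me3 at the starts of marker genes in NT. Of 12 dendritic and myeloid markers, 11 were annotated under the symbol used and 10 had a peak, including Itgax, Zbtb46, Clec7a, Irf8 and the MHC class II genes H2-Aa and H2-Ab1, while Flt3 had none. A peak was present at 1 of 7 T cell markers (Lck), 0 of 5 B cell markers, 0 of 4 fibroblast markers and 1 of 4 endothelial markers (Pecam1). The counts were the same in the other H3K4me3 lists.

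In resting cells NFATc1, NFATc2 and NFATc3 are phosphorylated and stay in the cytoplasm. A rise in calcium activates calcineurin, a phosphatase made of a catalytic and a regulatory subunit, which removes the phosphates so that NFAT enters the nucleus and binds DNA at GGAAA cores, often beside AP-1. FK506 bound to its receptor FKBP12 blocks calcineurin. The pathway is known to act on itself: NFAT drives the short isoform of the inhibitor Rcan1 from an internal promoter, which dampens calcineurin, and NFAT proteins raise Nfatc1 transcription in lymphocytes and osteoclast precursors. NFAT5, the osmotic stress member of the family, lacks the calcineurin docking region.

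The sequences on which the following results turn are shown on the strand of the gene concerned, 5′ to 3′, from the mm9 genome. Capitals mark GGAAA or its complement TTTCC and the AP-1 heptamer TGAGTCA or its complement TGACTCA. The first is the 300 bp before the internal Rcan1 start, and the others are the 60 bp to each side of a summit, with the summit as the middle base. They are shown because they are the sites with the highest fold enrichment or most tags at Rcan1 and Fkbp1a, the promoter sites, the site in the gene of the tagged factor, and a site at Nfat5 that has AP-1 heptamers without GGAAA. Sequence at Nfatc1, which has the peak with the most tags, is not shown.
Rcan1 internal start, mm9 chr16:92400323-92400622, minus strand: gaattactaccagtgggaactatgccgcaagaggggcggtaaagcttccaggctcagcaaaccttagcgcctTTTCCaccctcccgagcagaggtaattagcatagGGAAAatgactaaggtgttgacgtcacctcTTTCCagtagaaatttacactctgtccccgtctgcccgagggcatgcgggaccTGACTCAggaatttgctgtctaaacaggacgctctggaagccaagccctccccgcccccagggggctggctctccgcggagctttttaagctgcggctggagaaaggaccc
Rcan1 intron 1, most tags, mm9 chr16:92416113-92416233, minus strand: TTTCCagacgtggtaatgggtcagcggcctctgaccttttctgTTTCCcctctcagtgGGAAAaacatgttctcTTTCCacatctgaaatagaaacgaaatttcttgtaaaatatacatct
Rcan1 intron 1, second highest fold enrichment, mm9 chr16:92423817-92423937, minus strand: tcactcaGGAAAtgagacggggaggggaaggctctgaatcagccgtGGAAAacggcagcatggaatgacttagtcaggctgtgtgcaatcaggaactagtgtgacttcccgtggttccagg
Rcan1 intron 1, highest fold enrichment, mm9 chr16:92440136-92440256, minus strand: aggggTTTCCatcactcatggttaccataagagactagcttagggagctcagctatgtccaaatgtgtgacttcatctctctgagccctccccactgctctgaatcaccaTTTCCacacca
Nfatc2 intron 1, mm9 chr2:168408617-168408737, minus strand: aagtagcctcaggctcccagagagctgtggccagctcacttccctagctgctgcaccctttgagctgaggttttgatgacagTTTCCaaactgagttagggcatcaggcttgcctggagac
Nfat5 upstream, mm9 chr8:109779224-109779344, plus strand: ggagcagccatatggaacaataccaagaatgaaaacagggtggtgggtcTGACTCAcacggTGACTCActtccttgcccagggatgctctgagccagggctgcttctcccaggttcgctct
Ppp3r1 promoter, mm9 chr11:17058624-17058744, plus strand: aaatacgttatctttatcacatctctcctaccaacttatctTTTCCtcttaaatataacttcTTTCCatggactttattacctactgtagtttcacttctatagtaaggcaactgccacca
Fkbp1a downstream, mm9 chr2:151389408-151389528, plus strand: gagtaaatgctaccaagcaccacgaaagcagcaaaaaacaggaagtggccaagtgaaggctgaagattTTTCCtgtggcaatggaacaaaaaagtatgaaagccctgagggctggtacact

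Each of the 9 genes had an NFATc2 summit by the 100 kb rule, but not by narrower limits. A summit lay within 100 kb of a TSS or inside the gene at 9 of 9 genes, against 55.7% of all protein-coding genes. In total there were 34 summits, and no summit was counted for more than 1 of the genes. Summits inside the gene were found at 5 of 9 genes (Nfatc1, Nfatc2, Rcan1, Ppp3ca and Ppp3r1), against 13% of all protein-coding genes. The genes are long, with a median length of 74.2 kb against 15.4 kb for protein-coding genes, and no adjustment for length was made. A summit within 1 kb of a TSS was found at 2 of 9 genes (Rcan1 and Ppp3r1), against 5.29%. Of the 34 summits, 15 were in introns, 1 in an exon, 12 upstream and 6 downstream of the gene, and for 22 the gene itself had the nearest TSS. The remaining summits, among them every summit of Nfatc3, Ppp3cb and Fkbp1a, were closer to another gene. When only the gene with the nearest TSS counted, 6 of the 9 genes had a summit. With a limit of 20 or 30 kb from a TSS, or inside the gene, 7 did, without Nfatc3 and Ppp3cb. With p-values of 1e-10 or less 8 did, without Nfatc2. The share of all protein-coding genes was taken at 100 kb only.

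The heights of these sites were near the medians of the list, and the peaks with the highest fold enrichment were at Rcan1. The median was 68 tags and a fold enrichment of 13.3, against 63 tags and 13.4 for all 9438 NFATc2 peaks. The fold enrichment is the value over the local background that the peak caller gave to a peak. A stricter p-value limit of 1e-10 was met by 21 of the 34 peaks (61.8%) and by 50.4% of the whole list. Of the 6 peaks among the top 10% of the list by fold enrichment, 4 were in intron 1 of Rcan1 and the others were near Fkbp1a and Ppp3cb. GGAAAA lay within 100 bp of 17 of the 34 summits (50%, 95% Wilson interval from 34.1 to 65.9%) and of 45.6% of all summits. The shorter GGAAA lay within 100 bp of 30 (88.2%) and of 86.7% of all summits, and TGAGTCA, read on both strands, of 6 (17.6%, from 8.35 to 33.5%) and of 16.9%. Of the summits, 5 (14.7%, from 6.45 to 30.1%) lay inside an H3K4me3 peak of the curdlan list, compared with 23.3% of all summits. The same 5 summits were inside a peak in the NT and FK506 lists.

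**Figure D1:**
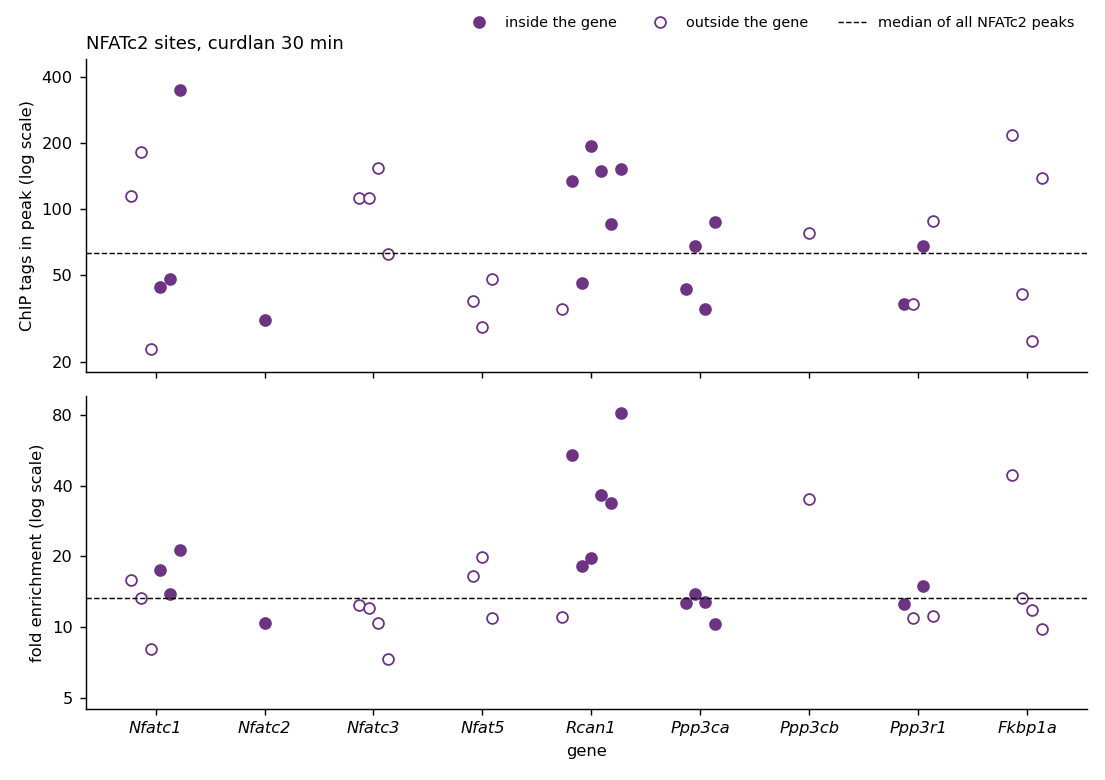
Each point is an NFATc2 peak of the gene named on the x axis, with its ChIP tags above and its fold enrichment below, both on log axes. Filled points have their summit inside the gene and open points outside it, and the dashed lines mark the medians of all 9438 NFATc2 peaks (63 tags and a fold enrichment of 13.4). Rcan1 holds the highest fold enrichment (81.6) and Nfatc1 the peak with the most tags (349).

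H3K4me3 was present within 1 kb of a TSS at 9 of 9 genes in each list, against 49% of protein-coding genes in NT, 48.9% with curdlan and 48.7% with FK506. The tags of these peaks, scaled to 1000000 ChIP tags of the library and called scaled tags from here on, differed widely among the genes. In NT they were highest at Nfatc1 (187), followed by Nfatc2 (134), Nfatc3 (86.1), Fkbp1a (73.8), Ppp3ca (67.8), Ppp3r1 (58.9), Nfat5 (49.0), Ppp3cb (45.3) and Rcan1 (8.70). Nfatc1 was the highest and Rcan1 the lowest in each of the 3 lists. These are sums over peaks of different length, with 12.4 kb called at Nfatc1 and 1.44 kb at Rcan1 in NT, and per kb of peak Rcan1 stood at 6.04 scaled tags in NT while the other genes stood between 12.8 (Ppp3ca) and 21.8 (Nfatc2).

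**Figure D2:**
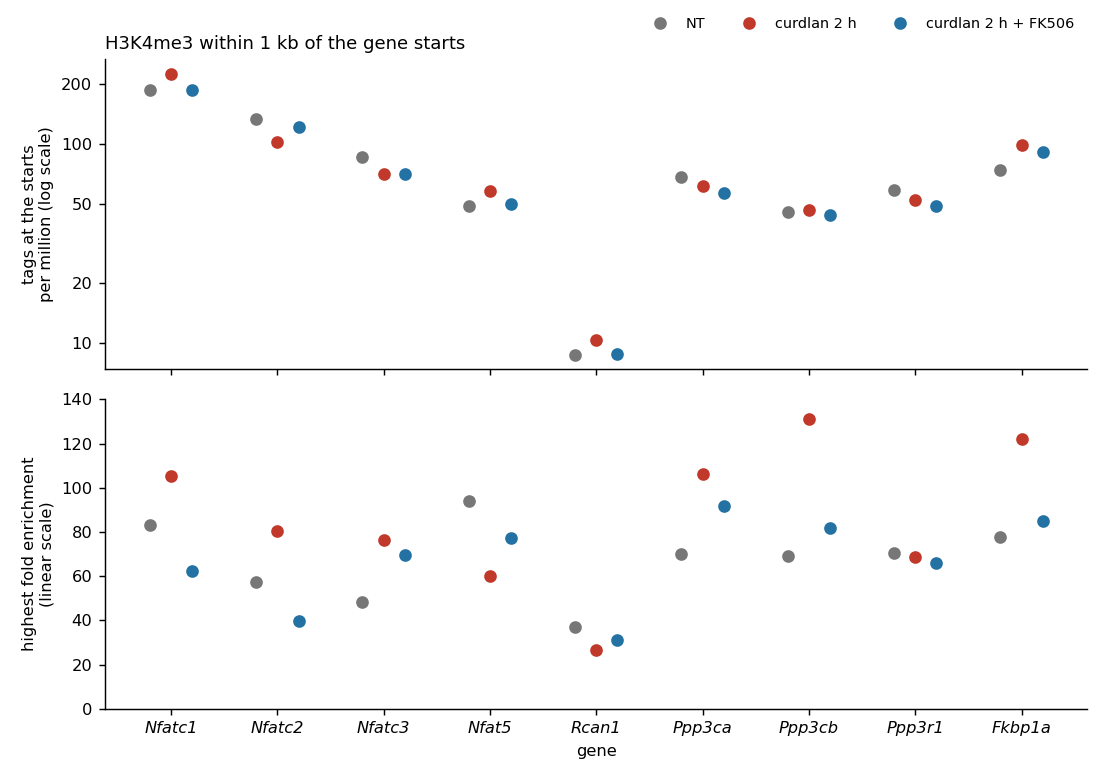
The upper panel plots the H3K4me3 tags of the peaks within 1 kb of a start of each gene, scaled to 1000000 ChIP tags, on a log axis, and the lower panel the highest fold enrichment of those peaks on a linear axis, with 1 point per library. In the upper panel Nfatc1 stands highest, between 186 and 225, and Rcan1 lowest, between 8.70 and 10.3.

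Ratios between conditions were taken by 2 measures, the highest fold enrichment of the peaks within 1 kb of a TSS and their scaled tags. Both were centred on the median log2 ratio of all genes (12345 to 12369) with a peak in both lists. For curdlan over NT these medians were 0.73 by fold enrichment and −0.13 by tags. For curdlan with FK506 over NT they were 0.45 and −0.17, and between the stimulated libraries, curdlan over curdlan with FK506, they were 0.27 and 0.04. The number of ChIP tags per input tag moved with the fold enrichment, at 1.38 in NT, 2.29 with curdlan and 1.96 with FK506, and its part in the ratios was not tested. The comparisons share libraries, so they are not independent of each other. The centred ratios by fold enrichment spread more over genes than those by tags, with an SD of 0.56 against 0.32 for curdlan over NT.

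By fold enrichment, 0 of the 9 genes were 1.5-fold or more higher with curdlan than in NT, where 14% of all genes tested were, and 3 were lower (Nfat5, Rcan1 and Ppp3r1), where 14.2% were. With curdlan against curdlan and FK506, 1 gene was higher (Nfatc2; 14% of all genes) and 1 was lower (Nfat5; 13.9%). With curdlan and FK506 against NT, 0 were higher (13.4% of all genes) and 4 were lower (Nfatc1, Nfatc2, Nfat5 and Rcan1; 13.6%). By scaled tags no gene of the 9 passed 1.5-fold in any comparison. For curdlan over NT 3.69% of all genes were higher and 1.33% lower by that measure. Against FK506, curdlan was higher at 1.26% and lower at 0.429% of genes, and for FK506 over NT the shares were 2.88% and 1.45%. The measures disagreed in sign at several genes. Nfat5 was at −1.38 on the log2 scale by fold enrichment for curdlan over NT and at 0.37 by tags, and Rcan1 at −1.20 and 0.37. For FK506 over NT the ratio by fold enrichment was −0.87 at Nfatc1, −0.99 at Nfatc2, −0.73 at Nfat5 and −0.71 at Rcan1, against 0.17, 0.04, 0.19 and 0.19 by tags. For curdlan over FK506 it was −0.64 at Nfat5 by fold enrichment and 0.19 by tags. The pair of NT peaks at Nfat5 held 816 tags and the curdlan pair 1239.

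**Figure D3:**
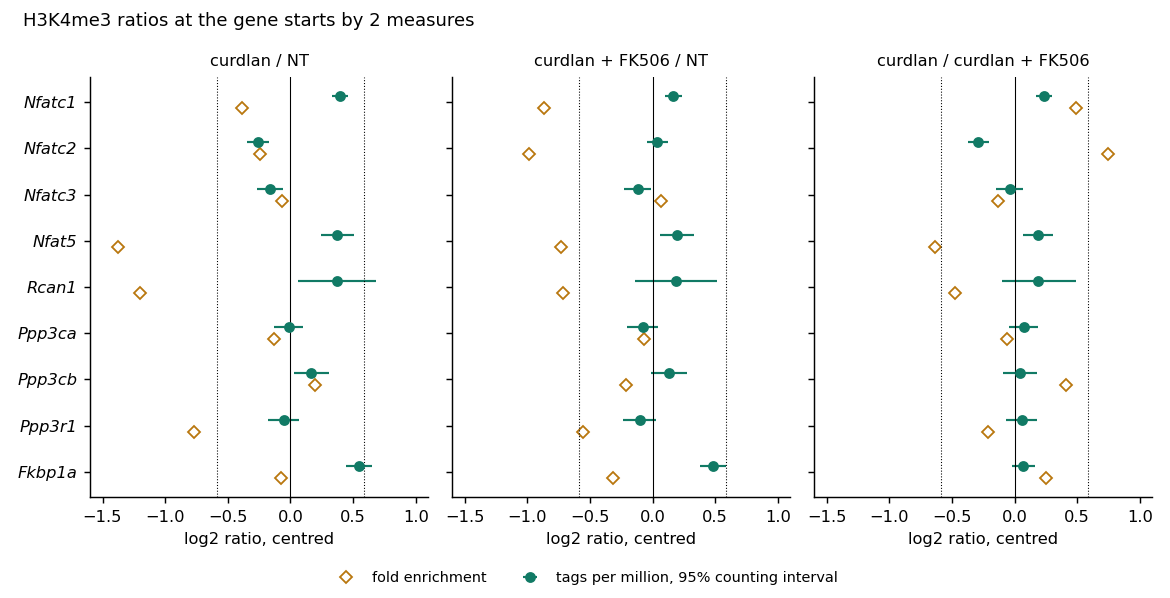
Each panel gives, for 1 comparison, the centred log2 ratio of H3K4me3 at the gene starts by scaled tags (filled, with 95% counting intervals) and by fold enrichment (open diamonds). The dotted lines mark 1.5-fold. The tag ratios stay between these lines at all 9 genes, whereas fold enrichment for curdlan over NT reaches −1.38 at Nfat5 and −1.20 at Rcan1.

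Nfatc1 encodes the NFAT factor that NFAT proteins themselves are known to induce, from the first of its promoters. It occupies chr18:80802944-80909810 (minus strand), with 2 starts 4.90 kb apart, and had 6 NFATc2 sites, a number that 4.01% of protein-coding genes reached or exceeded. The strongest was far from both starts, in intron 9, 96.2 kb downstream of the nearer start. Its summit at 80808733 was in the peak chr18:80807346-80809801 with 349 tags, enriched 21.2-fold (MACS p-value 8.0e-73), and it ranked 96 of 9438 by tags. Beside it in the same intron were summits at 80813068 (48 tags, fold enrichment 13.9) and 80814243 (44 tags, 17.5). Upstream, summits 24.4 kb and 64.5 kb from the first start had 181 and 114 tags, and both lay in the neighboring gene Atp9b. No summit was within 1 kb of either start. The nearest, 1660 bp upstream of the first start at 80911470, was the weakest of the 6, with 23 tags and an 8.10-fold enrichment. Its p-value of 5.9e-06 only just met the limit of 1e-05, and no GGAAA lay within 100 bp. It was the only one of the 6 inside an H3K4me3 peak.

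The mark at Nfatc1 formed a broad domain around both starts. In NT it was called as 4 peaks with 3111 tags over 12.4 kb. With curdlan it was called as 1 peak of 14.5 kb, from 80898547 to 80913054, with 4800 tags, and this was the fifth longest (rank 5) of 14872 peaks of the list. With curdlan and FK506 it was 2 peaks of 11.3 and 3.10 kb with 3616 tags in all, and the longer ranked 22 by length. The stretch between 80906176 and 80907693, between the starts, was outside the NT peaks and inside the peaks of the other lists. In NT the starts themselves also fell in short gaps, 0.044 kb (first start) and 0.007 kb from the nearest peak. With FK506 the first start was 0.064 kb from a peak, and with curdlan both starts were inside the peak. The levels in scaled tags were 187, 225 and 186 in NT, curdlan and curdlan with FK506. Thus, before centring, the curdlan library stood above the other libraries, which were nearly equal. Centred, the log2 ratio was 0.40 for curdlan over NT (95% counting interval from 0.33 to 0.46, higher than at 92.6% of genes). It was 0.24 for curdlan over curdlan with FK506 (from 0.17 to 0.30, 93.4%). For FK506 over NT it was 0.17 (from 0.10 to 0.24, 78.5%), so by scaled tags the FK506 library stood above NT once centred. The covered length was similar in the curdlan and FK506 lists (14.5 and 14.4 kb) but shorter in NT. Per kb the ratio was 0.23 for curdlan over NT and −0.02 for FK506 over NT. By fold enrichment, which was 83.1, 105 and 62.3, curdlan was also above FK506 (centred log2 ratio 0.49), but it was below NT once centred (−0.39). FK506 was below NT by fold enrichment as well (−0.87). H3K4me3 was thus higher with curdlan than with FK506 by both measures, and its position against NT depended on the measure.

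**Figure D4:**
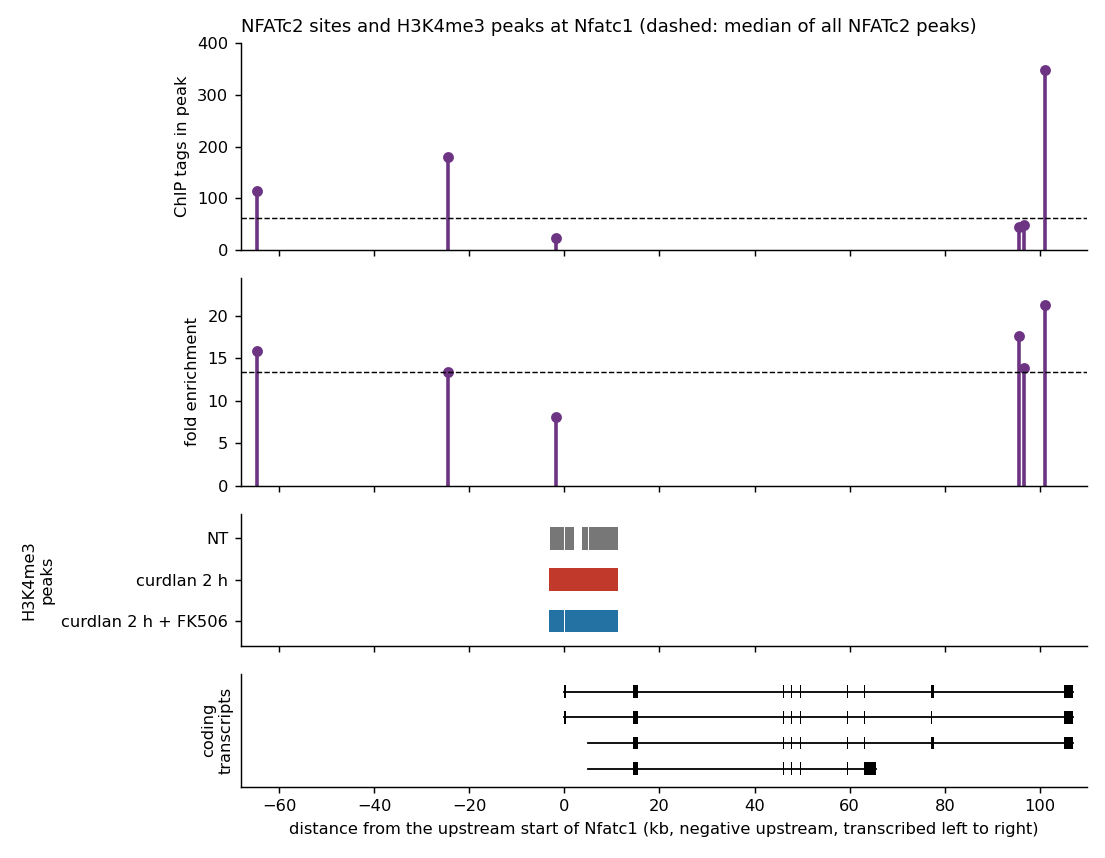
The Nfatc1 locus by distance from its first start in kb, negative upstream, with the NFATc2 peaks as stems whose height is their ChIP tags (top) or fold enrichment (second), the H3K4me3 peaks called in each condition as bars, and the exons of the coding transcripts below. The 349-tag peak lies toward the 3′ end of the gene, while H3K4me3 lies around the starts as 4 peaks in NT, 1 with curdlan and 2 with FK506.

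Nfatc2, the gene of the tagged factor, had 1 called peak of the tagged protein. It occupies chr2:168301910-168427157 (minus strand), and its only site within range was in intron 1, 7014 bp downstream of the nearest start. This peak, chr2:168408276-168409219, held 31 tags and was enriched 10.5-fold (MACS p-value 3.7e-06, FDR 2.44%). It overlapped no annotated exon of Nfatc2. Whether tags from the transgene contributed to it was not tested. The summit sequence holds 1 GGAAA and no GGAAAA. The main start had H3K4me3 with 2227, 2180 and 2365 tags in NT, curdlan and FK506. In scaled tags these were 134, 102 and 121, so curdlan was the lowest. The centred log2 ratio by tags was −0.26 for curdlan over NT (from −0.34 to −0.17) and −0.29 for curdlan over FK506 (from −0.37 to −0.21), with 1.92% of genes lower, while by fold enrichment the latter was 0.75. The upstream group of starts, at 168427157, had no peak in any list, and the gap to the nearest peak was 9.65 to 9.91 kb. Further peaks inside the gene numbered 3 in NT, 2 with curdlan and 1 with FK506. Of the 3 in NT, 1 overlapped an exon, with 94 tags and an FDR of 19.1%. Another in NT had an FDR of 16.14%, and 1 of those with curdlan had 16.15%. The remaining peak, with its NT summit at 168381862, was called in NT, curdlan and FK506 at an FDR of 0.02, 0.03 and 0.15%.

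Nfatc3 encodes a broadly expressed NFAT factor. At chr8:108582740-108654437 (plus strand), it had 4 sites between 36.3 and 66.1 kb upstream with 62 to 154 tags, and the nearest TSS was that of Dpep2, Ddx28 or Dus2l in each case. The farthest of them, at 108516629, was 970 bp from a Dpep2 start and inside an H3K4me3 peak. The gene had 86.1, 70.6 and 70.3 H3K4me3 scaled tags in NT, curdlan and FK506, and the centred log2 ratio of curdlan over FK506 was −0.04 (from −0.15 to 0.07).

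Nfat5 (chr8:109817370-109903417, plus strand) had 3 sites upstream, and for each of them Nfat5 was the nearest gene. The closest was 2125 bp from the first start, with 48 tags and a 10.9-fold enrichment (MACS p-value 3.2e-10). Those at 23.7 and 38.1 kb had 29 and 38 tags. The most distant had no GGAAA within 100 bp but 2 AP-1 heptamers, shown in the sequence above, the nearer of them centred 4 bp from the summit. Its p-value was 6.5e-13. H3K4me3 at Nfat5 was 49.0, 58.2 and 49.6 scaled tags, with a centred ratio for curdlan over NT of 0.37 (from 0.25 to 0.50) and over FK506 of 0.19 (from 0.06 to 0.31). By fold enrichment the order was the opposite, at 94.0, 60 and 77.4.

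The genes of the calcineurin subunits had sites of 35 to 88 tags. Ppp3ca, which encodes the alpha catalytic subunit (chr3:136333088-136600691, plus strand), is the longest of the genes at 268 kb and had 4 sites, all in introns, with 35 to 87 tags. The highest, at 136388741, 54.9 kb downstream of the nearest start in intron 1, lay inside an H3K4me3 peak in each list, with 289, 288 and 257 tags in NT, curdlan and FK506. That peak overlapped no exon. At its starts Ppp3ca had 67.8, 61.6 and 56.9 H3K4me3 scaled tags, and the centred ratio of curdlan over NT was −0.01 (from −0.13 to 0.10).

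Ppp3cb, the beta catalytic subunit gene (chr14:21318586-21365795, minus strand), met the 100 kb limit through 1 site at 99665 bp, counted from a non-coding transcript that starts inside the gene. From the nearest coding start it was 142335 bp away. The site, with 78 tags and a fold enrichment of 35.2, was in Ttc18 and nearest to 7330404K18Rik. With coding transcripts alone Ppp3cb had no site. Just outside the limit lay summits at 106 kb from Nfatc3 (59 tags) and 108 kb from Ppp3r1 (48 tags). The H3K4me3 level of Ppp3cb was 45.3, 46.6 and 43.9 scaled tags, the most even of the 9 genes across the libraries by that measure. By fold enrichment it was not even, at 69.2, 131 and 81.8.

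Ppp3r1 encodes the regulatory B subunit that binds calcium (chr11:17059266-17100378, plus strand). It had a promoter site 582 bp upstream of the coding start, in the peak chr11:17058283-17059142 with 37 tags and a 10.9-fold enrichment (MACS p-value 3.7e-08). The summit was inside the H3K4me3 peak of the start in each list, and a GGAAAA was centred 17.5 bp from it. The other sites were in intron 1 (37 tags), in an exon that also overlaps Wdr92 (68 tags), and 65.1 kb downstream of the nearest start at the start of C1d (88 tags). H3K4me3 was 58.9, 52.0 and 48.6 scaled tags. The centred ratio of curdlan over NT was −0.77 by fold enrichment and −0.05 by tags (from −0.18 to 0.07), and the ratio by tags was 0.05 for curdlan over FK506 (from −0.07 to 0.18).

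Rcan1, the feedback inhibitor of calcineurin, had the most NFATc2 sites of the 9 genes and the peak with the highest fold enrichment, while peaks at Nfatc1 (349 tags) and Fkbp1a (218 tags) held more tags than any at Rcan1 (up to 193). It occupies chr16:92392198-92466391 (minus strand), with a long transcript from a first start at 92466391 and a short one from an internal start at 92400322, 66.1 kb downstream, so that the long first intron is also the upstream region of the short transcript. Of its 7 sites, 6 were in that intron. As many summits or more inside the gene were found at 68 of the 22350 protein-coding genes (0.304%). Each of the 6 was above the median fold enrichment of the list, from 18.2 to 81.6, and for 6 of the 7 sites p was at or under 1e-10.

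The summit at 92400571 was 249 bp upstream of the internal start, in the peak chr16:92399921-92401102 that reached over the start, with 149 tags and a 36.5-fold enrichment (MACS p-value 6.3e-62). In the 300 bp before this start, printed above, are 3 GGAAA, 2 of them in GGAAAA, and 1 TGACTCA. The nearer GGAAAA was centred 22.5 bp from the summit, at 229 to 224 bp upstream of the start, the other 57.5 bp from it, at 194 to 189 bp, and the AP-1 heptamer was at 111 to 105 bp. Over the 45978 distinct starts of protein-coding transcripts, 23.9% held GGAAAA and 4.35% the AP-1 heptamer in the same window. Starts of a gene that lie close together each count, so their windows overlap. In the 1000 bp before the internal start were 9 GGAAA, a number reached at 1.72% of these starts, where the median was 3. The same number before the first Rcan1 start was 3. This count was not particular to Rcan1, since it was 10 to 12 before the coding starts of Ppp3cb, 10 before the starts of Fkbp1a at 151369635 and 151369636, and 9 before the upstream Nfatc2 start at 168427157, none of which had a summit within 1 kb.

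Farther up the intron were 5 more peaks, of which 2 had more tags and 2 a higher fold enrichment than the peak at the internal start. At 15.9 kb upstream of the internal start a peak had 193 tags and a fold enrichment of 19.7, and 4 GGAAA lie within 100 bp of its summit at 92416173. At 23.6 kb the peak with its summit at 92423877 had 134 tags and was enriched 54.2-fold (rank 36 of 9438, MACS p-value 8.3e-60). The summit at 92440196, 26.2 kb downstream of the first start, had 152 tags and was enriched 81.6-fold, the third highest (rank 3) of the 9438 peaks (MACS p-value 1.2e-91). It has GGAAA but no GGAAAA within 100 bp. The other intronic summits had 46 and 85 tags. The seventh site, 58.6 kb upstream of the first start, was in Clic6 and had 35 tags.

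**Figure D5:**
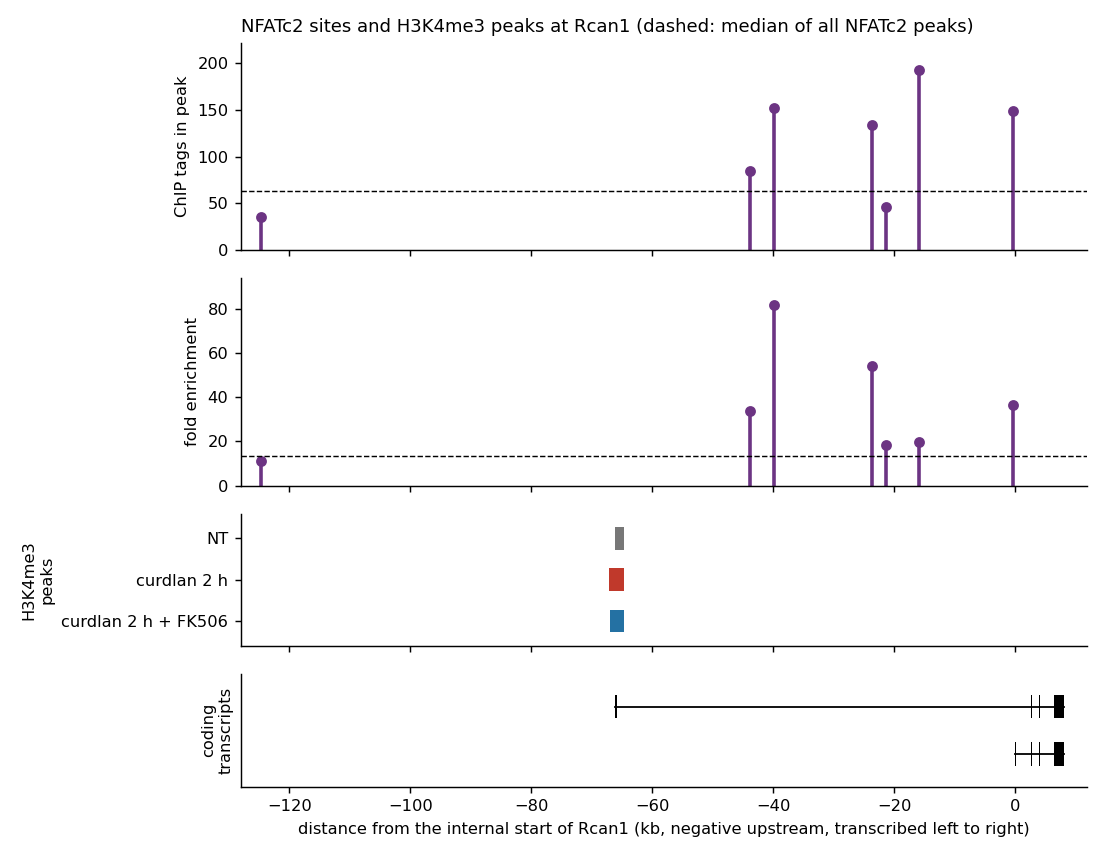
The Rcan1 locus by distance from its internal start in kb, negative upstream, with the NFATc2 peaks as stems of ChIP tags (top) and fold enrichment (second), the H3K4me3 peaks of each condition as bars, and the exons of both coding transcripts below. The 6 intronic NFATc2 peaks lie between the first start, which carries the H3K4me3 peaks, and the internal start, which carries none.

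No H3K4me3 peak was called at the internal start in any list, and the nearest called peak was 64.6 to 64.7 kb away. No Rcan1 site lay inside an H3K4me3 peak in any of the lists. Peak lists hold no value below the threshold, so H3K4me3 at the internal start was not detectable rather than absent. The first start had a small peak of 145, 220 and 171 tags in NT, curdlan and FK506, or 8.70, 10.3 and 8.78 scaled tags, with called lengths of 1.44, 2.51 and 2.23 kb. The centred log2 ratio by tags was 0.37 for curdlan over NT (from 0.06 to 0.69) and 0.19 for curdlan over FK506 (from −0.11 to 0.49). Per kb of peak it was −0.37 for curdlan over NT. The fold enrichment was 37.1, 26.8 and 30.9.

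Fkbp1a encodes FKBP12, the protein through which FK506 acts on calcineurin. At chr2:151368219-151387428 (plus strand), it had 4 sites, all downstream of the gene and nearest to Sdcbp2. The strongest, at 151389468, was 18.3 kb from the nearest Fkbp1a start and 8.89 kb from that of Sdcbp2, with 218 tags, a 44.4-fold enrichment (rank 87 of 9438, MACS p-value 1.0e-83) and a GGAAAA centred 9.5 bp from the summit. The others had 25 to 139 tags. H3K4me3 at the Fkbp1a starts was 1229 tags in NT, 2106 with curdlan and 1780 with FK506, or 73.8, 98.9 and 91.4 scaled tags, so both stimulated libraries were above NT. The centred log2 ratio by tags was 0.55 for curdlan over NT (from 0.45 to 0.65, higher than at 95.8% of genes) and 0.48 for FK506 over NT (from 0.38 to 0.59, 95.9%), the largest of the 9 genes in each. For curdlan over FK506 it was 0.07 (from −0.02 to 0.16), within counting error of 0. That comparison gave 0.20 per kb of peak and 0.25 by fold enrichment. The called length grew from 4.55 kb in NT to 5.30 and 5.69 kb, and per kb the ratio of curdlan over NT was 0.39. By fold enrichment, at 77.6, 122 and 85.1, Fkbp1a was near the median gene for curdlan over NT (−0.07) and below it for FK506 over NT (−0.32, higher than at 27.7% of genes), opposite in sign to the ratios by tags.

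A list of 40 other genes of the pathway was examined in the same way, again without adjustment for gene length, and 37 were found in the annotation. A summit within 100 kb or inside the gene was present at 28 of the 37, where 55.7% of all protein-coding genes had one, inside the gene at 9, where 13% did, and within 1 kb of a TSS at 2, a share near the 5.29% of all protein-coding genes. The last were Orai2 (974 bp upstream, 306 tags, fold enrichment 6.83) and Orai3 (840 bp upstream, 86 tags, fold enrichment 26.0), which encode plasma membrane calcium channels of store-operated entry. Of the family members of the 9 genes, Nfatc4 had 4 distant sites and no H3K4me3 in any list, and Ppp3r2 and Rcan2 had neither. Ppp3cc had H3K4me3 with 548, 659 and 593 tags, and Rcan3 with 361, 420 and 326. Ppp3cc had 2 sites, 1 of them inside the gene, and the nearest was 5791 bp from a start with 190 tags and a fold enrichment of 20.6. Rcan3 had 2 sites, the nearer 6275 bp upstream with 40 tags. H3K4me3 was present at 31 of the 37 in each list. By scaled tags 1 of the 31 was 1.5-fold or more higher with curdlan than in NT and 0 were lower, with a median of −0.01, and for curdlan over FK506 none passed in either direction, with a median of 0.02. Among all genes 3.69% were higher and 1.33% lower in the former comparison, and 1.26% and 0.429% in the latter. By fold enrichment more of the 31 passed, with 4 higher and 2 lower with curdlan than in NT (14% and 14.2% of all genes), 4 higher and 6 lower with curdlan than with FK506 (14% and 13.9%), and 7 higher and 3 lower with FK506 than in NT (13.4% and 13.6%). The gene that passed by tags for curdlan over NT was the NFAT kinase Dyrk2, named here after its values were seen. It had 457, 1177 and 886 tags in NT, curdlan and FK506 and a centred ratio of 1.14 for curdlan over NT. By tags it also passed for FK506 over NT (0.90), where 1 of the 31 was higher and 0 lower (2.88% and 1.45% of all genes). Its ratio for curdlan over FK506 was 0.24.

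The genes whose H3K4me3 fold enrichment across the 3 lists was most like that of Nfatc1, by the smallest Euclidean distance over the 3 log2 values among 10746 genes, were Tmem65, Yy1 and Poldip2. Tmem65, at a distance of 0.085, had fold enrichments of 79.5, 109 and 62.9 in NT, curdlan and FK506. For Rcan1 they were Sirt6, Hist1h4k and Cln8, and Sirt6, at a distance of 0.10, had 37.4, 26.5 and 33.0.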

How the data were processed

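Peak lists of 4 ChIP-seq experiments were analyzed. The authors aligned the reads with bowtie to mm9, and MACS (version 1.4.2 per the file headers) was run on each library with the matching input as control and a p-value threshold of 1e-05. The headers give band widths of 300 bp (NFATc2) and 1000 bp (H3K4me3). The deposited tag count of a peak is not normalized. The fold enrichment, as deposited, is the caller's value over the local background and was not computed here from the tags of the peak. The p-value is deposited as a score, −log10 p multiplied by 10, and the FDR is deposited in percent. Input totals were 10935820 (NFATc2), 12085435 (NT), 9309800 (curdlan) and 9917958 tags (FK506).

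Genes, TSSs and sequences came from the NCBIM37 genome, which is mm9, with the Ensembl 65 annotation (GENCODE vM1). Every peak lay within the chromosome lengths of that build. A summit was assigned to each gene with a TSS within 100 kb or around it, and an H3K4me3 peak to each gene with a TSS within 1 kb. Motifs were read on both strands. Tag ratios carry a 95% counting interval (Clopper-Pearson) and shares a Wilson interval. PCR copies and biological spread are outside these intervals. A ratio of 1.5-fold was used as a limit of size. Functions were tested on simulated data, and 7 of 7 tests passed. The 9 genes, the list of other pathway genes and the markers were chosen with earlier results of these data known. Genes named are the 9, relatives, pathway genes with a promoter site, nearest neighbors of sites and the 3 most alike genes, with Dyrk2 and the genes in which a site lay added after their values were seen. Alternatives covered distances, p-value and FDR limits, transcripts, motif windows and the H3K4me3 measure. Scripts ran in Python 3.11.15 with pandas 2.3.3, numpy 2.4.6, matplotlib 3.10.9 and scipy 1.17.1.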

Additional observations from a re-analysis of the deposited data

How the results depend on the processing

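No paired analysis was possible because each condition had 1 library. The number of NFATc2 summits at the 9 genes fell from 34 to 21 with a limit of 20 kb, 21 with p-values of 1e-10 or less and 22 when a summit counted only for the gene with the nearest TSS. The count of genes with a summit within 1 kb of a TSS, 2 in the main setting, was 1 when the peak had to overlap the TSS, 1 with p-values of 1e-10 or less (Rcan1 in both) and 4 within 5 kb, where Nfatc1 and Nfat5 joined. The share of summits with a motif was 88.2% with GGAAA in place of GGAAAA. The counts of genes with an H3K4me3 ratio of 1.5-fold or more by fold enrichment depended on the measure. By scaled tags, and by scaled tags per kb, each was 0 in every comparison and direction. Without centring, curdlan over NT had 4 higher and 1 lower, curdlan over FK506 had 3 higher and 0 lower, and FK506 over NT had 0 lower. With a fold of 2, curdlan over FK506 had 0 higher and 0 lower, and FK506 over NT had 0 lower. By scaled tags the sign of the called ratios turned at Nfat5 (0.37 for curdlan over NT, 0.19 for curdlan over FK506 and 0.19 for FK506 over NT), Rcan1 (0.37 and, for FK506 over NT, 0.19), Nfatc2 (−0.29 for curdlan over FK506, 0.037 for FK506 over NT) and Nfatc1 (0.17 for FK506 over NT). By tags per kb it turned at Nfat5 (0.26 for curdlan over NT, 0.28 for FK506 over NT), Nfatc2 (−0.21 for curdlan over FK506, 0.054 for FK506 over NT) and Ppp3r1 (0.0074 for curdlan over NT). The cause was not tested. The other 45 alternatives for counts and shares stayed within 1.5-fold or within the interval. Tag counts of 23 to 50 at the weaker sites, and 1 library per condition, limit what can be said of single peaks.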
